A study of Mus musculus with 8 samples.

Results

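Macrophages engulf particles, dying cells and immune complexes, and in the liver the resident population is that of the Kupffer cells, which line the sinusoids beside the endothelium. Growth and survival of these cells depend on the receptor Csf1r, their identity is set in part by the transcription factor PU.1, the product of Spi1, and Kupffer cells in adult mice are known for Clec4f, Timd4, Vsig4 and Marco. Many macrophage receptors signal through the small adaptors Tyrobp and Fcer1g, whose ITAM motifs recruit the kinase Syk. A list of 40 macrophage and Kupffer cell genes was examined here in mRNA-seq libraries of mouse liver microvascular endothelial cells (ECs). The members were the rows whose gene symbol was on the list, and 39 of the 40 were found among 22520 protein-coding genes. Spi1 carries the older symbol Sfpi1 in the table, where it was found by its Ensembl identifier, so that it is described apart and not counted.

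The 4 WT libraries (LRP1 f/f; Cdh5-CreER-/-) and the 4 LRP1 eKO libraries (LRP1 f/f; Cdh5-CreER+/-) came from littermates of C57BL/6 mice at postnatal day 14, with the floxed LRP1 alleles in both groups. Cdh5 drives the inducible Cre in ECs, and its induction in these animals is not given in the sources used here. The study selected microvascular ECs with PECAM-1 antibody Dynabeads, while the labels call the material liver microvesicular cells. The labels do not say that each library came from a separate animal, so that p-values measure the spread between these libraries, which may be technical.

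Each value is a quantile-normalized signal, whose sum was between 484445 and 485947 in every library. Depth is therefore unknown. The unit before normalization is not stated, so levels of different genes are not on a known common scale. Sums and ratios over genes are given below to compare libraries, and genes with high signals weigh most in the sums. Lrp1, the targeted gene, averaged 65.5 ± 13.3 across the WT group and 4.41 ± 1.65 across the LRP1 eKO group (SD, n = 4 each). LRP1 eKO replicate 2 stood apart from the other LRP1 eKO replicates in the macrophage genes, as described below, and results are given with and without it. The EC markers Cdh5 and Pecam1 were present in every library, with signals of 1.26 to 4.99 and of 1.53 to 3.85, and so were the fibroblast genes Dcn and Acta2, with WT group means of 563 and 811.

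Promoter sequences of members are shown because PU.1 binds at many macrophage genes through sites with the core GAGGAA, and Spi1 is itself on the list. RefSeq windows on GRCm38.p6 were at hand for 30 of the 39 members, and the 250 bases before each start were searched on both strands. The core was present in 15 of these 30 windows, and in 25.9% of the windows of all 27025 genes. A longer form, AGAGGAAG, was found in 6 of the 30 members and in 4.27% of all windows. Each stretch is written 5′ to 3′ on the strand of its gene, with the match or its reverse complement in capitals.
Marco (chr1:120505138-120505197, minus strand): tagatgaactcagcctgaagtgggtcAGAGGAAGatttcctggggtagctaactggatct
Cd5l (chr3:87357788-87357847, plus strand): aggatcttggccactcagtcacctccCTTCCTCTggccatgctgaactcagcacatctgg
Fcgr1 (chr3:96293992-96294051, minus strand): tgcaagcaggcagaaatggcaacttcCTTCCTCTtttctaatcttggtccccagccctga
Fcgr3 (chr1:171059395-171059436, minus strand): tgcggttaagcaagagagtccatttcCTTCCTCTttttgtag
Fcgr4 (chr1:171018877-171018925, plus strand): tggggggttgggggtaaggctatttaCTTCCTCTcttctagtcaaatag
Laptm5 (chr4:130913251-130913310, plus strand): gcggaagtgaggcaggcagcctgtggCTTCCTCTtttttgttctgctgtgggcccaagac
The form GAGGAAGT, which also contains the core, was found in C1qc and Fcgr4 and in 2.79% of all windows.
C1qc (chr4:136893076-136893135, minus strand): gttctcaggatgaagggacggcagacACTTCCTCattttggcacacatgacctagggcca
The match shown was nearest to the start of its RefSeq window in Fcgr3, 16 bases before it, and farthest in C1qc, 195 bases before it. The stretches of Fcgr3 and Laptm5 lie inside the GENCODE spans of these genes (171051174 to 171064935 and 130913125 to 130936141). The RefSeq starts used for them are therefore not the outermost ones. Other letters searched were the ETS core GGAAGT, which overlaps GAGGAAGT and was present in 13 members and 22.2% of all windows, and AGTTTC of the interferon response element, present in 11 members and 15.4%. The E-boxes CACGTG and TCACGTGA had no match in the 30 windows, against 6.86% and 0.907% of all windows, and CATGTG was in 5 members and 13.8% of all windows. These matches describe letters in the windows, and binding was not measured.

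The macrophage genes differed widely between the libraries of LRP1 eKO. Their summed signal was 368, 389, 414 and 256 in WT replicates 1 to 4, and 1236, 116, 1148 and 685 in replicates 1 to 4 of LRP1 eKO. LRP1 eKO replicates 1, 3 and 4 were thus above every WT library and replicate 2 was below every one. The 39 members made up 0.0526% to 0.0852% of the total signal in WT libraries, from 0.141% to 0.255% in LRP1 eKO replicates 1, 3 and 4, and 0.0239% in replicate 2. In a bulk library, a difference in the number of macrophages cannot be told apart from a difference in RNA per cell.

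**Figure D1:**
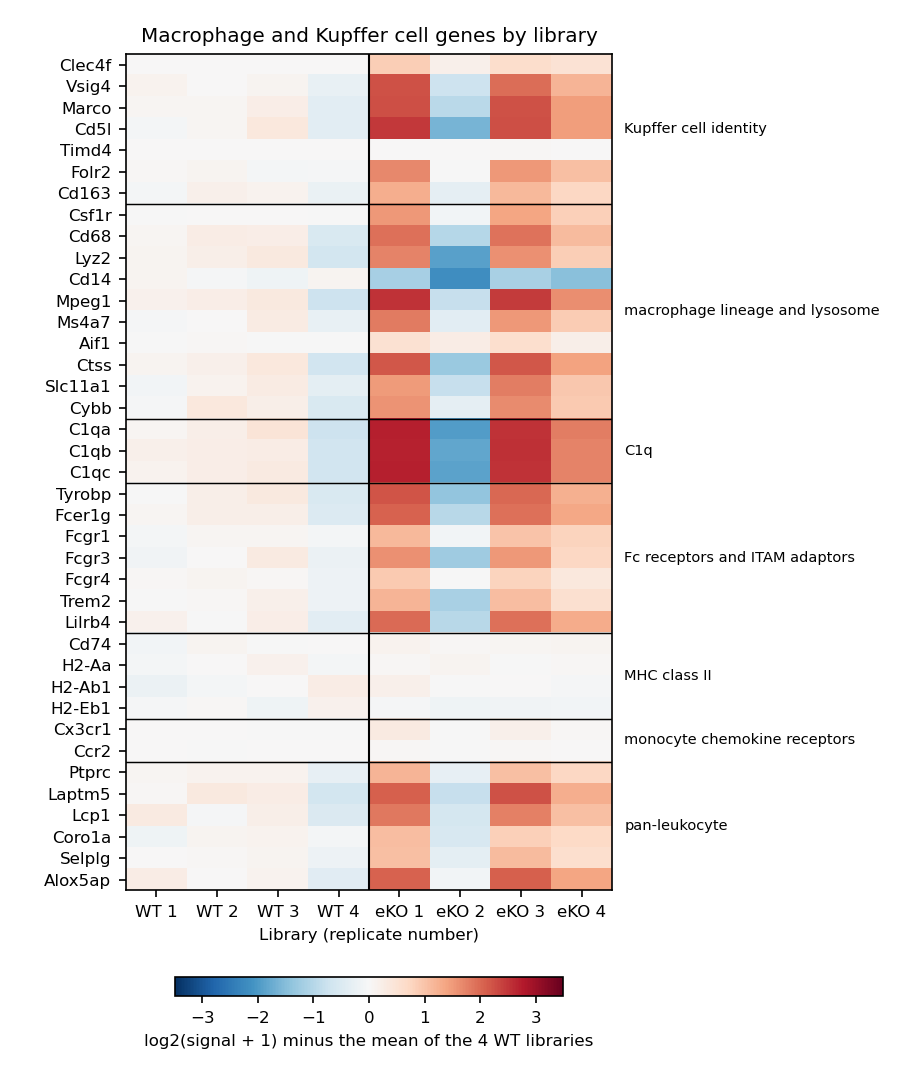
Heat map of the 39 members, in rows by role, across the 8 libraries, in columns, as log2(signal + 1) minus the mean of the 4 WT libraries. Replicates 1, 3 and 4 of LRP1 eKO are red for most members and replicate 2 is blue, while Cd14 is lower in all 4 LRP1 eKO libraries and the MHC class II rows are pale throughout.

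The test of genotype covered 26 members that reached a signal of 1 in 4 or more libraries, among 11391 genes tested, and 13 members were below that filter. Members that passed only because LRP1 eKO signals were high had to differ, so the counts over the 26 are a description. At an adjusted p under 0.05 (limma on log2(signal + 1), Benjamini-Hochberg), 4 of the 26 members rose (Folr2, Csf1r, Fcgr4 and Alox5ap), where 19.0% of all genes tested rose, and Cd14 fell, where 22.2% fell. With a change of at least 2-fold as well, Folr2 and Alox5ap were higher and Cd14 was lower, against 0.869% of all genes higher and 0.790% lower. The median log2 fold change of the 26 members was 1.02, with 25 of them above 0, and that of all genes tested was -0.0095. Only 1 of the 26, Cd14, had groups of 4 without overlap, and 42.6% of all genes tested had such groups.

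Without LRP1 eKO replicate 2, 24 of the 26 members rose and Cd14 fell at an adjusted p under 0.05, against 17.2% of all genes rising and 20.8% falling. H2-Ab1 was the member that did not pass. Replicate 2 was set apart by the values of these same members, and leaving it out narrows their spread. Calls and p-values without it, here and below, are therefore descriptions and not support for a difference. At 2-fold, 21 members rose and Cd14 fell, where 1.53% of all genes rose and 0.729% fell, and the median log2 fold change of the members was 1.60. Without replicate 1 or without replicate 3 of LRP1 eKO, Cd14 was the one member called. Leaving out WT replicate 4 gave 2 calls and a median of 0.88. Array weights, which let limma give less weight to a library that deviates from its group, gave 23 calls. The share of all genes called with these weights is not given. With no filter on low signal, 0 of the 4 members that rose with all 8 libraries passed, at adjusted p from 0.0506 to 0.0906, and Cd14 did.

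**Figure D2:**
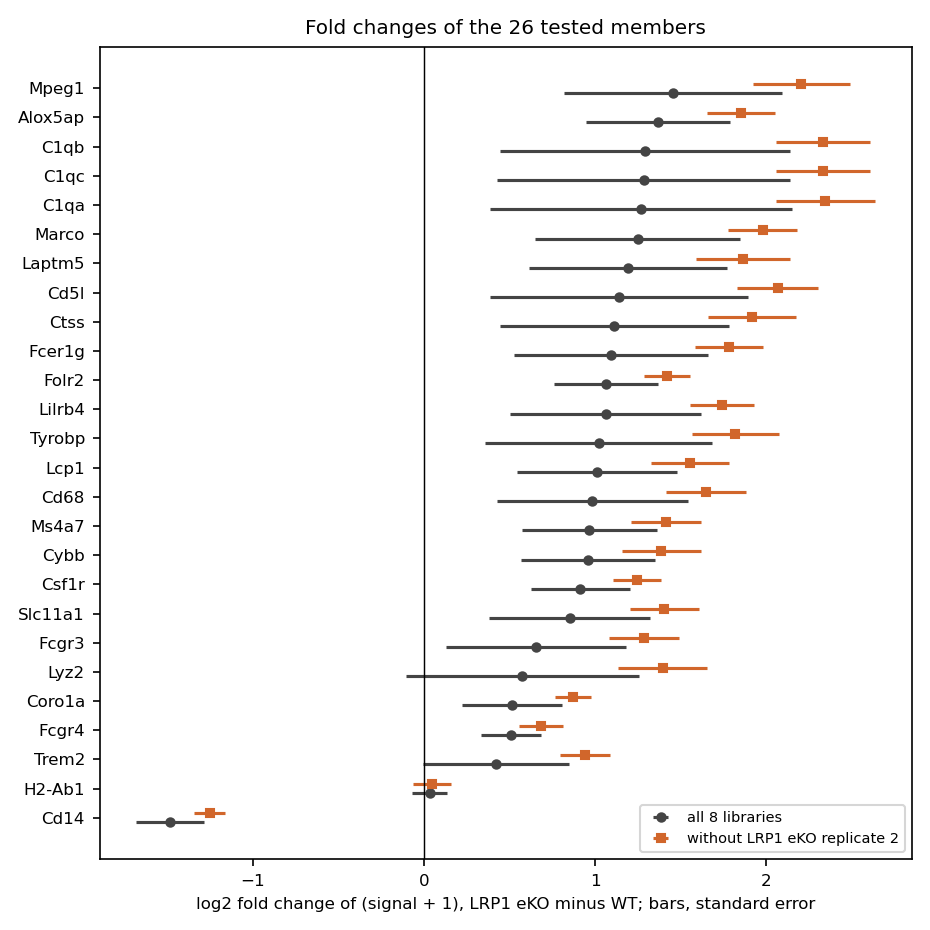
Log2 fold change of (signal + 1), LRP1 eKO minus WT, on the x axis for the 26 tested members, with bars for the standard error. Grey circles are from all 8 libraries and orange squares are without LRP1 eKO replicate 2, where 25 of 26 members were called and the bars are shorter.

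The order of libraries recurred across members. Replicate 2 was the lowest LRP1 eKO library for 25 of 26 tested members (96.2%), which was so for 24.2% of all genes tested, and the lowest of all 8 libraries for 21 members (80.8%), compared with 14.1% of all genes. LRP1 eKO replicates 1, 3 and 4 were all above every WT library for 24 members (92.3%) and for 22.7% of all genes. The full order of replicate 1 over 3 over 4 over 2 was seen in 20 members (76.9%) and in 6.74% of all genes. Among WT libraries, replicate 4 was the lowest for 22 members (84.6%) and for 38.6% of all genes. The median SD of the log2 signal of members was 1.35 between LRP1 eKO libraries and 0.297 between WT libraries, and that of all genes tested was 0.0797 and 0.103. These genes share their libraries, so the shares are descriptions and no test was made.

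Several Kupffer cell identity genes differed between the LRP1 eKO libraries by a wider margin than most members. Marco, a scavenger receptor (chromosome 1), had signals of 1.21, 1.18, 1.43 and 0.619 in WT and of 8.86, 0.0861, 8.74 and 4.76 in replicates 1 to 4 of LRP1 eKO. The groups overlapped because of replicate 2 alone, which was below every WT library. Its log2 fold change was 1.25 with a standard error of 0.60 (limma adjusted p = 0.12), and 1.98 without replicate 2 (limma adjusted p = 0.000121). Cd5l, a secreted protein of tissue macrophages, had WT signals of 2.80, 3.17, 4.08 and 2.05, and LRP1 eKO signals of 20.8, 0.274, 17.96 and 9.99. The ratio of LRP1 eKO replicate 1 to replicate 2 was 103-fold for Marco and 76.1-fold for Cd5l, and the median over the 26 members was 10.4-fold.

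Folr2, a folate receptor of tissue-resident macrophages, showed another level in replicate 2. Its signals were 1.72, 1.83, 1.52 and 1.56 in WT, and 7.51, 1.62, 6.61 and 4.52 in replicates 1 to 4 of LRP1 eKO. Replicate 2 thus lay within the WT range rather than below it, at 0.979 of the WT mean. Folr2 rose by a log2 fold change of 1.06 with a standard error of 0.31 (limma adjusted p = 0.0202), while the exact two-sided permutation test over the 8 libraries gave p = 0.086, where the smallest possible p is 0.029. Without replicate 2 its log2 fold change was 1.42 (limma adjusted p = 7.71e-05). The call was lost when replicate 1 or 3 of LRP1 eKO was left out (adjusted p = 0.0522 and 0.0556).

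Clec4f, a lectin used as a marker of Kupffer cells, was listed at 0 in all 4 WT libraries and reached 0.826, 0.124, 0.537 and 0.427 in replicates 1 to 4 of LRP1 eKO. Every LRP1 eKO library was therefore above every WT library, at signals below the filter (limma without the filter, adjusted p = 0.0161; exact two-sided permutation p = 0.029). A value of 0 without counts may be a failed estimate, so no fold is given. Timd4, a receptor for phosphatidylserine on resident macrophages, was listed at 0 in 7 libraries and had 0.0237 in LRP1 eKO replicate 3. Both of these markers that define adult Kupffer cells were thus at 0 in the WT libraries, and the list is called macrophage and Kupffer cell genes here by its contents. Vsig4, a complement receptor, had signals of 0.422 to 0.875 in WT, of 7.03, 5.62 and 2.91 in LRP1 eKO replicates 1, 3 and 4, and of 0.0381 in replicate 2. Cd163, which takes up haemoglobin bound to haptoglobin, had group means of 0.298 ± 0.163 and 1.27 ± 0.913 (SD, n = 4 each) with 0.0396 in replicate 2. Neither Vsig4 (limma without the filter, adjusted p = 0.181) nor Cd163 (adjusted p = 0.146) passed with all libraries, and both did without replicate 2 (adjusted p = 0.00352 and 0.00437).

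**Figure D3:**
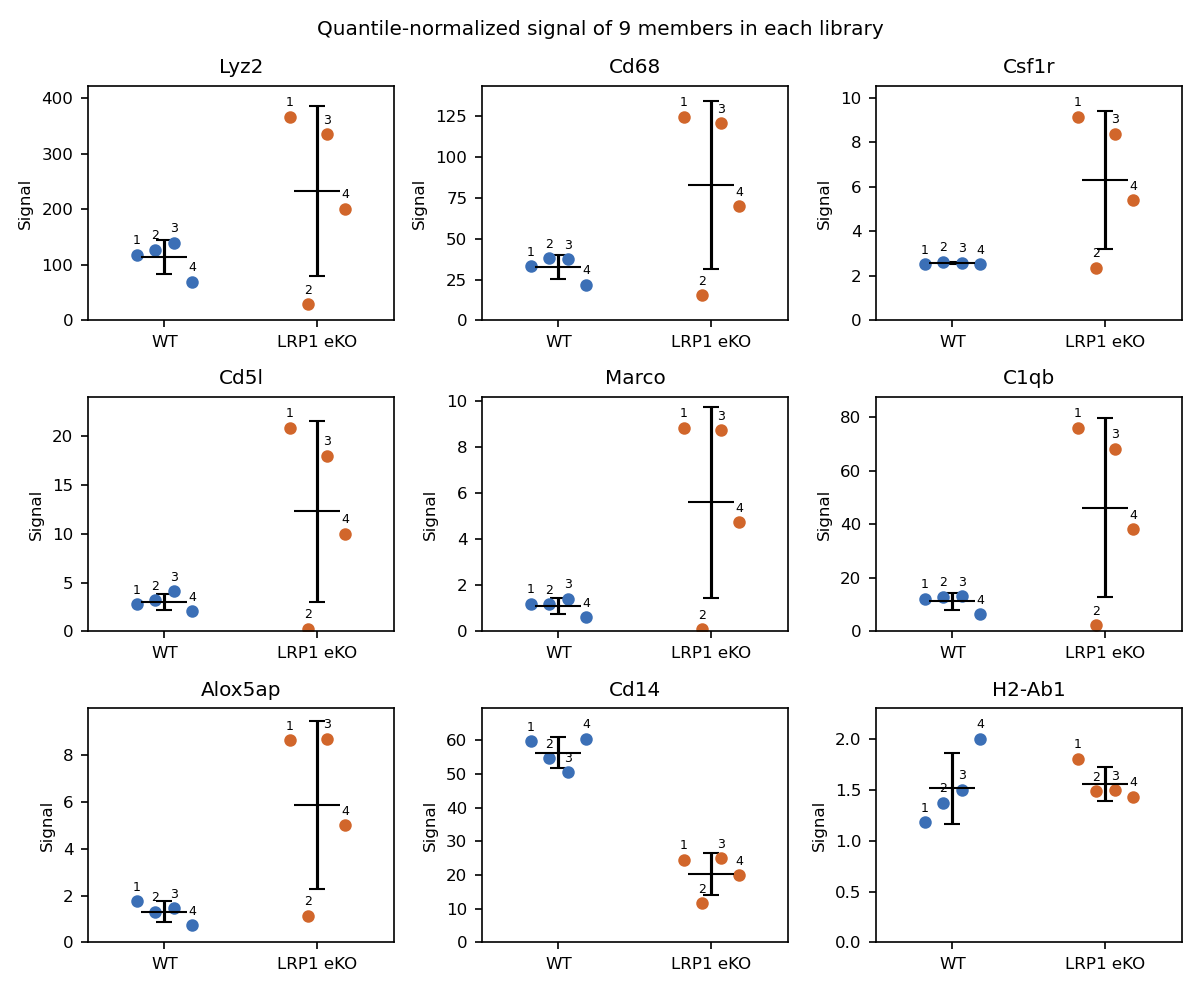
Quantile-normalized signal on the y axis of 9 members in WT (blue) and LRP1 eKO (orange) libraries, with points numbered by replicate, horizontal lines for the mean and bars for the SD of 4 libraries. For 7 of these genes LRP1 eKO replicates 1, 3 and 4 are above all WT points and replicate 2 is not, Cd14 is lower in every LRP1 eKO library, and H2-Ab1 overlaps.

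Among the tested macrophage lineage genes, Cd14 was the one whose groups did not overlap. Cd14, the coreceptor that passes lipopolysaccharide to TLR4 (chromosome 18, 36725067 to 36726798), had WT signals of 59.7, 54.7, 50.6 and 60.5 and LRP1 eKO signals of 24.5, 11.7, 25.0 and 19.9. All 4 LRP1 eKO libraries were below all 4 WT libraries. Cd14 fell by 1.48 on the log2 scale with a standard error of 0.20 (limma adjusted p = 0.000363; exact two-sided permutation p = 0.029), and its log2 fold change without replicate 2 was -1.25 (limma adjusted p = 1.7e-05). Within LRP1 eKO libraries, replicate 2 had the lowest Cd14 signal, as for most members. Within WT libraries, replicate 4 had the highest.

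Csf1r, the receptor for the growth factors Csf1 and Il34 (chromosome 18, 61100598 to 61132149), had even WT signals, 2.54, 2.64, 2.60 and 2.52. Its LRP1 eKO signals were 9.15, 2.36, 8.38 and 5.39. Replicate 2 was only slightly below the WT libraries, at 0.918 of their mean, and WT replicate 4 was not set apart. Csf1r rose by 0.91 on the log2 scale with a standard error of 0.29 (limma adjusted p = 0.0299; exact two-sided permutation p = 0.14). That call was lost when any one library other than LRP1 eKO replicate 2 was left out, with adjusted p from 0.0534 to 0.0796.

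Lyz2, the lysozyme of myeloid cells, had WT signals of 118, 128, 140 and 69.9 and LRP1 eKO signals of 367, 29.1, 335 and 201. Its log2 fold change of 0.57 had a larger standard error, 0.68 (limma adjusted p = 0.524). Lyz2 shares 15.4% of its 50-base transcript stretches with Lyz1, so part of its signal could belong to that gene. Cd68, a glycoprotein of the lysosomal membrane, had 33.1, 38.0, 37.4 and 21.8 in WT and 125, 15.4, 121 and 69.8 in LRP1 eKO libraries. Both genes gave the pattern of 3 high libraries and 1 low one, and neither passed with all libraries (Cd68 limma adjusted p = 0.181). Without replicate 2, the log2 fold changes were 1.39 for Lyz2 and 1.64 for Cd68 (limma adjusted p = 0.00326 and 0.000788).

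The other tested genes of this group were Mpeg1 (a pore-forming protein of phagosomes), Ms4a7, Ctss (cathepsin S), Slc11a1 (a metal transporter of the phagosome) and Cybb (the catalytic subunit of the phagocyte NADPH oxidase). Their log2 fold changes were between 0.85 for Slc11a1 and 1.45 for Mpeg1, with limma adjusted p from 0.0744 to 0.206. Group means were 6.12 ± 2.03 and 24.5 ± 16.5 for Mpeg1, and 29.7 ± 8.45 and 88.3 ± 57.5 for Ctss (SD, n = 4 each, WT first). Mpeg1 had the largest log2 fold change of the 26 members. For Ms4a7, Slc11a1 and Cybb the WT means were 0.744 ± 0.279, 1.47 ± 0.452 and 0.921 ± 0.483, and the LRP1 eKO means 2.90 ± 2.09, 4.33 ± 3.04 and 3.13 ± 2.04 (SD, n = 4 each). Aif1, the calcium-binding protein Iba1, was below the filter with WT signals of 0.0957 to 0.153 and LRP1 eKO signals of 0.605, 0.321, 0.684 and 0.282. It was higher in every LRP1 eKO library, replicate 2 included (limma without the filter, adjusted p = 0.0134; exact two-sided permutation p = 0.029).

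Spi1, found by identifier only, had signals of 0.979, 1.61, 1.93 and 1.00 in WT, and of 9.01, 1.01, 8.05 and 3.89 in replicates 1 to 4 of LRP1 eKO. It followed the same order of LRP1 eKO libraries, with replicate 2 inside the WT range. Its log2 fold change was 1.22 with a standard error of 0.43 (limma adjusted p = 0.0464), and 1.70 without replicate 2.

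C1qa, C1qb and C1qc encode the chains of C1q, the recognition part of the classical complement pathway, and lie side by side on the minus strand of chromosome 4 between 136880129 and 136898803. C1qa had WT signals of 5.82, 6.39, 7.91 and 2.89 and LRP1 eKO signals of 41.8, 0.660, 36.0 and 21.3. C1qb had 12.3, 13.0, 13.2 and 6.41 in WT and 76.2, 2.34, 68.3 and 38.3 in LRP1 eKO libraries. C1qc had 9.56, 10.5, 11.0 and 5.15 in WT and 63.3, 1.67, 55.3 and 31.5 in LRP1 eKO libraries. In each of the 3 genes LRP1 eKO replicate 2 was the lowest of 8 libraries and WT replicate 4 the next lowest. With all libraries, no gene of the trio passed (log2 fold changes 1.27 to 1.29, standard errors 0.85 to 0.88, limma adjusted p = 0.245 to 0.269). Without replicate 2, all 3 rose, by 2.33 to 2.34 on the log2 scale (limma adjusted p = 0.000287 to 0.000362), the largest such values of the members.

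The ratio of signals within a library was also followed. C1qc over C1qb was 0.779 to 0.837 in 7 libraries and 0.716 in LRP1 eKO replicate 2. C1qb over Tyrobp was 0.504 to 0.648 in WT libraries, 0.832, 0.853 and 0.832 in LRP1 eKO replicates 1, 3 and 4, and 0.348 in replicate 2. Lyz2 over Tyrobp was between 5.49 and 6.25 in WT libraries and between 4.01 and 4.37 in all 4 LRP1 eKO libraries. C1qb thus moved more widely than Tyrobp, and Lyz2 was lower relative to Tyrobp in LRP1 eKO libraries, replicate 2 included. Ratios were not tested.

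Fc receptors and their adaptors bring immune complexes to phagocytes. Tyrobp (DAP12), the adaptor of Trem2 and other receptors, had WT signals of 18.9, 22.2, 24.4 and 12.7 and LRP1 eKO signals of 91.5, 6.71, 80.0 and 46.0. Fcer1g, the common gamma chain, had 7.22, 8.001, 8.03 and 4.69 in WT and 32.0, 2.99, 28.7 and 19.1 in LRP1 eKO libraries. Replicate 2 was the lowest of 8 libraries for both, and neither passed (limma adjusted p = 0.241 and 0.148), with log2 fold changes of 1.02 and 1.09 that were 1.82 and 1.78 without that replicate (limma adjusted p = 0.000749 and 0.000208). Fcgr4, an activating receptor, had a narrower range, with 1.78, 1.87, 1.79 and 1.42 in WT and 4.08, 1.67, 3.64 and 2.48 in LRP1 eKO libraries. It rose by 0.51 on the log2 scale (standard error 0.18, limma adjusted p = 0.0442; exact two-sided permutation p = 0.11), a call that was lost when any library other than LRP1 eKO replicate 2 was left out (adjusted p from 0.062 to 0.114).

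Fcgr3, another activating receptor, had group means of 9.07 ± 1.65 and 18.9 ± 12.1, and the lipid-sensing receptor Trem2 of 19.4 ± 2.12 and 31.1 ± 16.9 (SD, n = 4 each, WT first). Their log2 fold changes were 0.65 and 0.42 (limma adjusted p = 0.341 and 0.455), and 1.29 and 0.94 without replicate 2. Fcgr3 shares 9.58% of its 50-base stretches with Fcgr2b. The high-affinity receptor Fcgr1 was below the filter, at 0.0901 to 0.193 in WT, 0.942 to 1.51 in LRP1 eKO replicates 1, 3 and 4, and 0.0621 in replicate 2. Lilrb4, an inhibitory receptor, had 4.79 to 7.79 in WT and 17.5 to 28.9 in the 3 high LRP1 eKO libraries, with 2.80 in replicate 2. Because 96.6% of its 50-base stretches are shared with other genes, mostly Lilrb4a, the value of Lilrb4 is uncertain.

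MHC class II genes did not follow the other members. H2-Ab1, a beta chain that presents peptides to CD4 T cells, had signals of 1.18, 1.37, 1.504 and 2.01 in WT and of 1.81, 1.49, 1.5003 and 1.43 in LRP1 eKO libraries. The groups overlapped fully, and the log2 fold change was 0.032 with a standard error of 0.10 (limma adjusted p = 0.819). H2-Eb1 was between 0.643 and 1.04 in every library, and H2-Aa between 0.0356 and 0.2005. Cd74, the invariant chain, had 0.0272, 0.168, 0.0937 and 0.121 in WT and 0.195, 0.127, 0.160 and 0.182 in LRP1 eKO libraries (limma without the filter, adjusted p = 0.156). In 0 of the 4 genes was replicate 2 the lowest of all libraries, which was so for 14.1% of all genes tested. LRP1 eKO replicates 1, 3 and 4 exceeded every WT library in 0 of 4, and in 22.7% of all genes. Replicate 2 was the lowest LRP1 eKO library for 2 of the 4, and for 24.2% of all genes. Only 1 of the 4, H2-Ab1, passed the filter, so a pattern could hardly be seen in the others. Their summed signal was 2.03 to 3.21 in WT and 2.42 to 2.90 in LRP1 eKO libraries.

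Cx3cr1 and Ccr2, chemokine receptors of monocytes, were near 0 throughout. Cx3cr1 had 0.0652, 0.0515, 0.0307 and 0.0467 in WT and 0.299, 0.0402, 0.189 and 0.0742 in LRP1 eKO libraries (limma without the filter, adjusted p = 0.182). Ccr2 was listed at 0 in WT replicate 2 and LRP1 eKO replicate 2, and at 0.0181 to 0.0438 in the other libraries. No difference was detectable for either gene.

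Replicate 2 was the lowest LRP1 eKO library for all 6 leukocyte genes of the list, and for 24.2% of all genes tested. The full order of replicate 1 over 3 over 4 over 2 was seen in 3 of them and in 6.74% of all genes. Ptprc (CD45), the phosphatase on all leukocytes, had signals of 0.495, 0.552, 0.555 and 0.182 in WT and of 2.26, 0.180, 1.97 and 1.38 in LRP1 eKO libraries. Selplg, the ligand of selectins, had 0.422, 0.450, 0.495 and 0.242 in WT and 1.91, 0.107, 2.00 and 1.11 in LRP1 eKO libraries. Both were below the filter and did not pass with all libraries (limma without the filter, adjusted p = 0.14 and 0.173), and both did without replicate 2 (adjusted p = 0.00394 and 0.0045). Alox5ap, which hands arachidonic acid to 5-lipoxygenase for leukotriene synthesis, had 1.76, 1.304, 1.47 and 0.727 in WT and 8.62, 1.14, 8.69 and 4.99 in LRP1 eKO libraries. Replicate 2 was inside the WT range for this gene, and Alox5ap rose by 1.37 on the log2 scale with a standard error of 0.42 (limma adjusted p = 0.0264; exact two-sided permutation p = 0.11). Its call was lost without WT replicate 4 (adjusted p = 0.0639) and without LRP1 eKO replicate 1, 3 or 4 (0.0703, 0.0703 and 0.0594), and with robust moderation in limma (0.0613).

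Lcp1, which bundles actin in leukocytes, had WT signals of 5.89, 4.47, 5.49 and 2.97 and LRP1 eKO signals of 19.1, 2.67, 17.8 and 10.5. The log2 fold change of 1.01 had a standard error of 0.47 (limma adjusted p = 0.108). Laptm5, a lysosomal protein of blood cells, and Coro1a, an actin regulator, had log2 fold changes of 1.19 and 0.51 (limma adjusted p = 0.124 and 0.182). Group means were 5.04 ± 1.64 and 16.4 ± 11.0 for Laptm5, and 1.08 ± 0.186 and 2.21 ± 1.26 for Coro1a (SD, n = 4 each, WT first). All 3 were lowest in LRP1 eKO replicate 2.

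**Figure D4:**
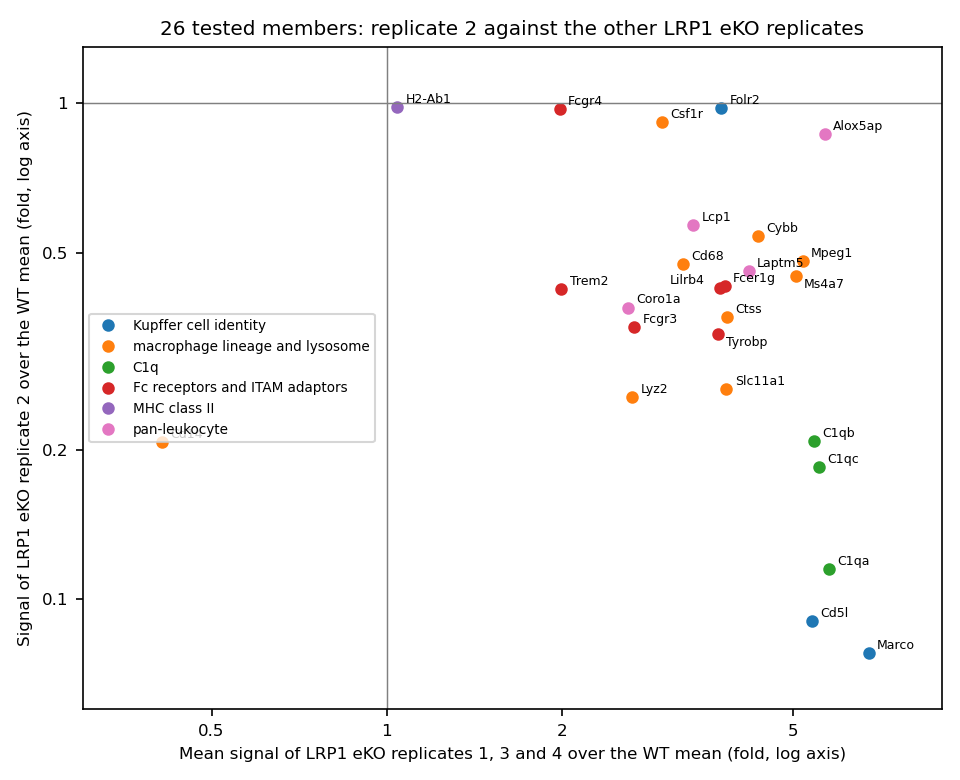
Mean signal of LRP1 eKO replicates 1, 3 and 4 over the WT mean on the x axis and signal of LRP1 eKO replicate 2 over the WT mean on the y axis for the 26 tested members, on log axes, coloured by role. Folr2, Csf1r, Fcgr4, Alox5ap and H2-Ab1 lie near 1 on the y axis, most members lie between 0.2 and 0.6, and Marco and Cd5l lie below 0.1.

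Replicate 2 did not lower all members alike. Its signal relative to the WT mean was 0.0778 for Marco, 0.0905 for Cd5l, 0.115 for C1qa, 0.255 for Lyz2, 0.343 for Tyrobp and 0.473 for Cd68, and 0.867 to 0.979 for Alox5ap, Csf1r, Fcgr4 and Folr2. The 4 members that rose with all 8 libraries were those last 4, whose replicate 2 was near the WT mean. H2-Ab1, at 0.983, was also near it and did not rise. A low replicate 2 widens the spread on which the p-value rests, so this match is not a separate observation. Relative to WT, replicates 1, 3 and 4 had a mean that was 6.73-fold for Marco, 5.75-fold for C1qa, 2.64-fold for Lyz2 and 1.98-fold for Fcgr4.

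Of 11 other macrophage genes measured, which are not members, replicate 2 was the lowest LRP1 eKO library for 10, with Pilra the exception. Of the 11, 6 were tested, and Cfp (properdin) rose with all 8 libraries (log2 fold change 0.72, limma adjusted p = 0.0368) while Csf2rb did not pass (0.97, adjusted p = 0.0529). Without replicate 2, all 6 rose, where 17.2% of all genes tested rose. Adgre1 (F4/80), named after its values were seen, had 2.79, 3.32, 3.62 and 1.49 in WT and 14.3, 0.713, 14.2 and 7.59 in LRP1 eKO libraries. With the mean log2 signal of the 11 genes as a covariate, the median log2 fold change of the 26 members was -0.33. In that fit Folr2 (0.31) and Alox5ap (0.31) were higher and Cd14 (-1.94) lower at an adjusted p under 0.05, with 11 further members lower. Covariate and members were measured in the same libraries. The covariate had the members' library order, at 2.41, 0.912, 2.39 and 1.88 in LRP1 eKO replicates 1 to 4. Its fit therefore cannot separate an effect of genotype from that order.

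Growth factors and regulators of macrophages differed from the members in library order. Csf1, the ligand of Csf1r, had signals of 217 to 298 in WT and of 457, 456, 462 and 450 in replicates 1 to 4 of LRP1 eKO. It rose in all 4 libraries with no drop in replicate 2 (log2 fold change 0.75, limma adjusted p = 0.000175; exact two-sided permutation p = 0.029). Id3, a regulator that Kupffer cells require, fell from 299 ± 18.7 to 173 ± 7.08 (SD, n = 4 each, limma adjusted p = 4.78e-06). Of the 9 measured genes of this list 6 were tested, with Csf1 and Tgfb1 higher and Id3 and Il34 lower. Of all genes tested, 19.0% were higher and 22.2% lower, so counts on these short lists are descriptions. Among 3 tested ITAM signalling kinases and partners, Lyn (log2 fold change 0.82, limma adjusted p = 0.00028) and Plcg2 (0.55, adjusted p = 0.000312) rose, and all 3 passed without replicate 2. Of the 3 tested genes of MHC class II loading and control, Cd80 rose (0.47, limma adjusted p = 0.000804) and H2-DMb1 fell (-0.28, adjusted p = 0.00295).

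Markers of other cells had the library order of the members to different degrees. Of all genes tested, 19.0% rose and 22.2% fell, and without replicate 2 these shares were 17.2% and 20.8%. Counts on such short lists are descriptions. The 10 liver sinusoidal endothelial genes had summed signals of 9.68 to 14.2 in WT, 36.9, 33.4 and 22.8 in LRP1 eKO replicates 1, 3 and 4, and 11.4 in replicate 2, and 2 of 5 tested genes rose, Oit3 (1.11, limma adjusted p = 0.000221) and Flt4 (0.47, adjusted p = 0.00323), while 5 of 5 rose without replicate 2. For the 10 endothelial genes the sums were 49.4 to 51.9 in WT and 82.2, 58.6, 76.0 and 66.1 in replicates 1 to 4 of LRP1 eKO, and 3 of 8 tested genes rose, with Eng (0.91, adjusted p = 0.000195) and Esam (0.24, adjusted p = 0.012) first by adjusted p, while 5 of 8 rose without replicate 2. Both endothelial sums had the library order of the macrophage genes within LRP1 eKO, but not every gene did. Kdr was highest in replicate 2 (3.99, 5.23, 4.19 and 4.54 in replicates 1 to 4 of LRP1 eKO). F8 was highest in replicate 3 (0.746, 0.731, 1.06 and 0.452). Stab1, Fcgr2b and Mrc1 were the largest parts of the sinusoidal sum in LRP1 eKO replicate 1, at 9.67, 7.92 and 4.06. Fcgr2b shares transcript stretches with the member Fcgr3, so part of its signal could belong to that gene. Which cells the sinusoidal signals came from was not tested. The 10 hepatocyte genes had sums of 1492 to 1544 in WT and 614 to 900.3 in LRP1 eKO libraries. Most of each sum was Trf alone, with 1358 to 1451 in WT and 581 to 862 in LRP1 eKO libraries. By gene, 6 of 6 tested genes fell, led by Serpina1a (-2.06, limma adjusted p = 2.47e-06) and Alb (-1.59, adjusted p = 8.63e-06). The stellate and fibroblast genes had sums of 2057 to 2260 and 2187 to 2485, with Acta2 higher (0.39, limma adjusted p = 0.000177) and 2 of 7 tested genes lower, Dcn among them (-0.30, adjusted p = 0.000542). The part of these markers in the differences of the macrophage genes was not tested.

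Lymphocyte genes other than Lck were near 0 in every library. Of the 7 measured genes of each of T cells, NK cells, and B and plasma cells, 0 reached a signal of 1. Lck made up most of the T cell sum, at 0.191 to 0.692 in WT and 0.316 to 0.496 in LRP1 eKO libraries. The T cell sums were 0.238 to 0.739 in WT and 0.33 to 0.599 in LRP1 eKO libraries, those of NK cells 0.0413 to 0.175 and 0.0416 to 0.214, and those of B and plasma cells 0.0215 to 0.166 and 0.0903 to 0.164. Cd3g, Cd2, Cd8a, Ncr1, Gzma and Cd79b were listed at 0 in all 8 libraries. The leukocyte members therefore varied between libraries in which the lymphocyte genes other than Lck were at or near 0.

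Residual Lrp1 in LRP1 eKO libraries had the same order as the macrophage genes. It was 6.01 in replicate 1, 5.15 in replicate 3, 4.32 in replicate 4 and 2.16 in replicate 2. With 4 libraries no correlation is given, and the relation was not tested.

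**Figure D5:**
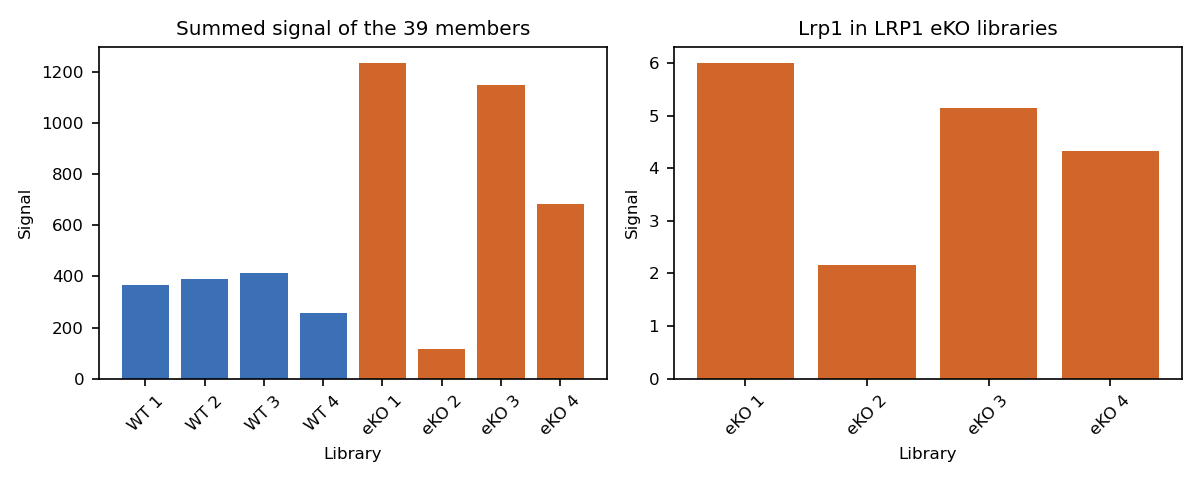
Summed quantile-normalized signal of the 39 members in each of the 8 libraries (left, WT blue and LRP1 eKO orange) and signal of Lrp1 in the 4 LRP1 eKO libraries (right), both from 0. In both panels replicate 1 is the highest of LRP1 eKO and replicate 2 the lowest; the WT Lrp1 signals, 56.2 to 85.1, are left out of the right panel.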

How the data were processed

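The 4 WT and 4 LRP1 eKO libraries of liver ECs took their genotype and replicate number from the labels. The authors deposited 1 table with the quantile-normalized signal of 22520 protein-coding genes, and all its sample columns were used. The paper's methods name trimGalore, STAR, featureCounts with a GENCODE model and edgeR, while the submitters' processing notes name TopHat2, Cufflinks and mm10. Which of these made the table is not given in the sources used here, and neither is the unit before quantile normalization. That normalization removes any global shift between libraries and leaves depth unknown, so precision was judged from the spread between libraries. A signal of 0 was given for 6186 to 6621 genes per library.

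The log2(signal + 1) of the deposited values was fitted in limma (version 3.58.1, R 4.3.3) on genotype alone, with eBayes moderation along a trend. P-values were adjusted by Benjamini-Hochberg over the 11391 genes that reached a signal of 1 in 4 or more libraries. Fold changes on this scale understate changes of low signals. Members below the filter were fitted without it, over all genes. Exact two-sided permutation tests of the mean log2 signal used the 8 libraries, with a smallest p of 0.029. The thresholds were an adjusted p of 0.05 and a 2-fold change. The calculation was tested on simulated data.

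The members, the other gene lists, the tests and the alternatives were chosen with earlier results of these data known. By rule, every member was named, and every library was given for the members with the smallest adjusted p of each role and for 10 set members; some further members, and Cdh5, Pecam1, Adgre1 and Spi1, were given so after their values were seen. Of 128 genes on the other lists, 124 were found by symbol or identifier. Positions and the share of 50-base transcript stretches that a gene shares with other genes came from GENCODE M21 on GRCm38, and promoter windows from RefSeq on GRCm38.p6. Csf1r, Cd14, C1qa, Tyrobp, Lilrb4, Cd74, H2-Ab1, Selplg and Alox5ap had no window there. Alternatives were other pseudocounts, filters, moderation, weights, centring, a macrophage covariate, the replicate number as a block, a ratio of means, and leaving out each library. Plots used Python 3.11.15 and matplotlib 3.10.9.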

Additional observations from a re-analysis of the deposited data

Results flagged for a closer look

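Values of the 39 members were examined in 78 groups of 4 libraries for a highest or lowest library whose gap to the next one, divided by the range of the group, exceeded the critical value of Dixon at the 95% level. This gap was past the limit in 3 groups, and 3.9 would be by chance. In WT libraries, C1qb (0.897) and Ptprc (0.857) were set apart by a low WT replicate 4, with signals of 6.41 and 0.182. In LRP1 eKO libraries, Timd4 had a gap share of 1, because replicate 3 was at 0.0237 and the other libraries were listed at 0. LRP1 eKO replicate 2 was not marked in this way for any member, since replicates 1, 3 and 4 were themselves widely spread.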

How the results depend on the processing

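With all 8 libraries 5 of 26 members were called, 3 of them at 2-fold, with a median log2 fold change of 1.02. Leaving out 1 library at a time gave 1 to 25 calls, 1 to 22 at 2-fold and medians of 0.72 to 1.60, with the highest values without LRP1 eKO replicate 2 and the lowest without LRP1 eKO replicate 1. Leaving out both WT replicate 4 and LRP1 eKO replicate 2 gave 25 and 22 calls. Array weights gave 23 and 21 calls, no filter 3 and 1 among 39 members, a mean signal of at least 5 gave 1 and 1 among 16 members, and a pseudocount of 5 gave 1 call at 2-fold. Robust moderation gave 4 calls, 2 of them at 2-fold. Same-numbered libraries did not deviate together (correlations from -0.13 to 0.178), and a fit with the replicate block gave 6 calls, 3 of them at 2-fold. That fit called 4185 of all genes tested, and the main fit 4690. Trimmed mean centring moved libraries over a range of 0.00726 (log2) and kept 5 calls. For the alternatives other than the block and leaving out LRP1 eKO replicate 2 alone, the share of all genes called is not given. Their counts, and those with the covariate below, are therefore descriptions.

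With the other macrophage genes as covariate, 14 members were called and the median was -0.33. Of the fold changes that turned negative, those at an adjusted p under 0.05 were Cd5l (-0.75), Cd68 (-0.43), Lyz2 (-1.15), Ctss (-0.58), C1qa (-0.94), C1qb (-0.85), C1qc (-0.87), Tyrobp (-0.66), Fcgr3 (-0.67), Trem2 (-0.66) and Lilrb4 (-0.35). The others were Marco (-0.26), Mpeg1 (-0.15), Ms4a7 (-0.015), Slc11a1 (-0.32), Cybb (-0.0014), Fcer1g (-0.34), Laptm5 (-0.26), Lcp1 (-0.16) and Coro1a (-0.19). The cause was not tested. H2-Ab1 ranged from -0.034 (without WT replicate 1) to 0.12 (without WT replicate 4) with 1 library left out, was at -0.014 without LRP1 eKO replicate 1, and was called in none of these. Cd14 was called under every alternative that gave a p-value, which the ratio of means did not.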

Other observations

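Some gene lists of other blood cells had few measurable members, so their counts are descriptions beside the 19.0% of all genes tested that rose and the 22.2% that fell. Of the neutrophil genes, 2 of 8 were tested and both rose, with log2 fold changes of 0.68 for Mmp8 (limma adjusted p = 0.0272) and of 0.66 for S100a8 (adjusted p = 0.0409), while Ly6g and Retnlg were listed at 0 in all 8 libraries. Mmp8 and S100a8 were lower in LRP1 eKO replicate 2 (1.08 and 1.19) than in the other LRP1 eKO replicates (2.23 to 3.57). Not all neutrophil genes below the filter had this pattern. Within LRP1 eKO, Cxcr2 and S100a9 were highest in replicate 2 (0.199 and 0.166), Csf3r was lowest there (0.0304), and Camp was neither (0.0586). Among dendritic cell genes Zbtb46 was tested and did not pass (log2 fold change -0.066, limma adjusted p = 0.478), and Flt3, Siglech and Cd209a were listed at 0 throughout. Alas2 was the tested erythroid gene and fell by 0.40 on the log2 scale (limma adjusted p = 0.0432), but did not pass without LRP1 eKO replicate 2 (adjusted p = 0.0599). None of 3 tested megakaryocyte and platelet genes passed, with Itgb3 (log2 fold change -0.17, limma adjusted p = 0.141) and Pf4 (0.85, adjusted p = 0.179) lowest in adjusted p. Pf4 had 1.64 to 2.13 in WT and 9.40, 0.552, 7.16 and 4.48 in LRP1 eKO libraries, the library order of the macrophage genes, and passed without LRP1 eKO replicate 2 (limma adjusted p = 0.000432).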
